A study of Mus musculus with 8 samples.

Results

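Wnt signalling was examined in C2C12 cells, a mouse myoblast line, in which Pvt1, a long RNA that codes for no protein, had been silenced. The genes were taken by symbol from the array design: the Wnt ligands, Porcn, the R-spondins, the Frizzled receptors, Lrp5 and Lrp6, the secreted inhibitors of the Sfrp and Dkk families, the Dishevelled genes, Axin1, Axin2, Apc and Gsk3b, Ctnnb1, and the Tcf7 genes with Lef1. This gave 56 genes of the 27248 with a symbol, read by 92 probes of 56605. The rule reads the symbols and no measured value.

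RNA came from 8 samples of proliferating cells at passage 10. In the Pvt1-silenced group 4 samples were transfected with LNA GapmeRs, antisense oligonucleotides that make RNase H cut the RNA they pair with, and in the control group 4 samples received negative control GapmeRs in the same Lipofectamine 2000 reagent. All 8 thus carried a transfected GapmeR and none was untreated. The labels call them biological replicates of this 1 line and do not say whether the GapmeRs against Pvt1 were used together. Each RNA was labelled with Cy3 and read on a one-colour Agilent array, and all arrays shared 1 slide and 1 scan. Row 1 of the slide held controls 1 to 3 and silenced replicate 1, and row 2 held control 4 and silenced replicates 2 to 4. The GapmeRs against Pvt1 are shown because they define the treated group:
Pvt1_1: accgtagtagagttaa
Pvt1_3: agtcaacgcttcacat

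A secreted Wnt protein is lipid-modified by the acyltransferase Porcn and then binds a Frizzled receptor together with Lrp5 or Lrp6. Dishevelled relays the signal and holds back the destruction complex of Axin, Apc and Gsk3b, so that β-catenin, the product of Ctnnb1, escapes degradation and joins Tcf and Lef factors on target genes. R-spondins strengthen the signal, while Sfrp proteins bind the ligands and most Dkk proteins bind the co-receptors. In muscle, Wnt signals are known for roles in myogenic commitment, in satellite cells and in fibrosis.

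Signals were positive and significant for 58.8% to 62.5% of spots on the control arrays and for 51.6% to 61.0% on the silenced arrays, and silenced replicate 4 was the dimmest. The mean correlation with arrays of the same group was 0.962 for control replicate 3 and 0.979 to 0.985 for the rest. The brightest Pvt1 probe changed by -2.86 on the log2 scale (SE 0.32, limma adjusted p 0.000682). The myoblast label was checked against 10 genes. Of these Myod1, Des, Cdh15, Chrna1, Itga7 and Pax7 were well above background on all 8 arrays, Myog on 7, Pax3 on 1 array of each group, and Myf5 and Myf6 on none. The summed linear signal of that list lay between 136902 and 174900 in controls and between 103441 and 117370 after silencing. A list of 10 hepatocyte genes moved the other way, from 925 to 1891 up to 4022 to 6777. It had 1 or 2 genes well above background on each control array and 7 to 9 on each silenced array, and Mup1 was at least 25.0-fold higher in silenced cells. Alb, Fabp1, Fgb, Mup1 and Serpina1a each had a probe well above background on all 4 silenced arrays, and none of their probes was so on a control array. The other lists overlapped or differed less: the fibroblast list summed to 36673 to 52793 and 40839 to 51258, the leukocyte list to 5667 to 7279 and 6722 to 8616, the adipocyte list to 3590 to 4252 and 2609 to 3486, and the neuron list to 41387 to 50230 and 26571 to 43573. The 4 endothelial genes were well above background on no array. What part these lists have in the changes below was not tested.

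Each value below is a quantile-normalized log2 signal, and a change is the silenced mean minus the control mean, where 1 unit is a doubling. Probes bind with different strength, so a level of one probe says nothing against a level of another. A probe was tested where at least 3 of 4 arrays in each group gave a value, and it was called where limma's p, adjusted over all 28649 tested probes by the Benjamini-Hochberg method, was under 0.05. The median change of all tested probes was -0.19, which became 0.02 with cyclic loess and 0.16 after a shift to the 75th percentile. Small changes depend on that reference.

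Signal for the pathway came mainly from receptors and intracellular members, with few ligands. Of the 56 genes, 26 had a probe well above background on all 4 arrays of at least 1 group, and 23 had one on all 8 arrays. All 3 Dishevelled genes and all 4 Tcf and Lef genes were among the 23, as were both Lrp co-receptors, Ctnnb1 and Porcn. Of 19 Wnt genes only Wnt1, Wnt7b, Wnt9a, Wnt10a and Wnt10b were. No probe of 20 genes was well above background on any array. No tested probe was available for 18 genes, namely Wnt2, Wnt2b, Wnt3, Wnt3a, Wnt7a, Wnt8a, Wnt8b, Wnt9b, Wnt16, Rspo2, Rspo3, Fzd8, Fzd10, Sfrp1, Sfrp5, Dkk1, Dkk4 and Axin2. Axin2 is a destruction complex gene and itself a common target of β-catenin, and its 2 probes were positive on no control array and on at most 2 silenced arrays. The other way, 1 Fzd8 probe had a value on all 4 control arrays, 2 of them well above background, and on no silenced array. Fzd8 was named here after its values were seen.

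Of the 58 tested member probes 15 were called lower and 2 higher, that is 25.9% and 3.45%. Among all tested probes 18.4% were called lower and 4.79% higher. With 1 probe per gene, the brightest over all 8 arrays, 7 of 38 tested genes were lower and 2 higher, against 13.2% and 6.59% of all 15444 genes. Leaving out control 1, 2 or 4 or silenced 1 or 2 left 4 lower genes in place of 7, and leaving out silenced 4 gave 5 higher genes and 7 higher probes. With the slide row as a block 3 genes were lower. The shares of the members lay near those of the array, and the median change over the 38 genes was -0.18, against -0.05 over all genes. The groups did not overlap for 20 member probes (34.5%), while this held for 28.2% of all tested probes. Over the member probes, lower calls outnumbered higher ones under every setting run, but by less under some. With cyclic loess 15 member probes were lower and 12 higher, beside 18.4% and 18.9% of all probes. After the shift to the 75th percentile 13 were lower and 12 higher (4365 and 7075 of all 28649 probes). Without masking of dim spots more probes were tested, and it was 14 and 8 of 92 member probes (4787 and 4990 of all 56600). Without silenced 4 it was 16 and 7 of 58 member probes (5287 and 3572 of all 29663). By brightest probe the split turned, with 5 lower and 10 higher genes after the shift to the 75th percentile, 6 and 10 with cyclic loess and 6 and 7 without masking. Over all tested probes, higher calls likewise outnumbered lower ones under each of these settings. Counts over all genes by brightest probe were not made under them. Each of the 17 called probes kept its sign within both rows of the slide. Row 1 held a single silenced array and row 2 a single control, and these probes were chosen for their group difference. This is thus a weak check. In RNA from whole cultures, fewer cells of a type and less RNA per cell cannot be told apart.

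**Figure D1:**
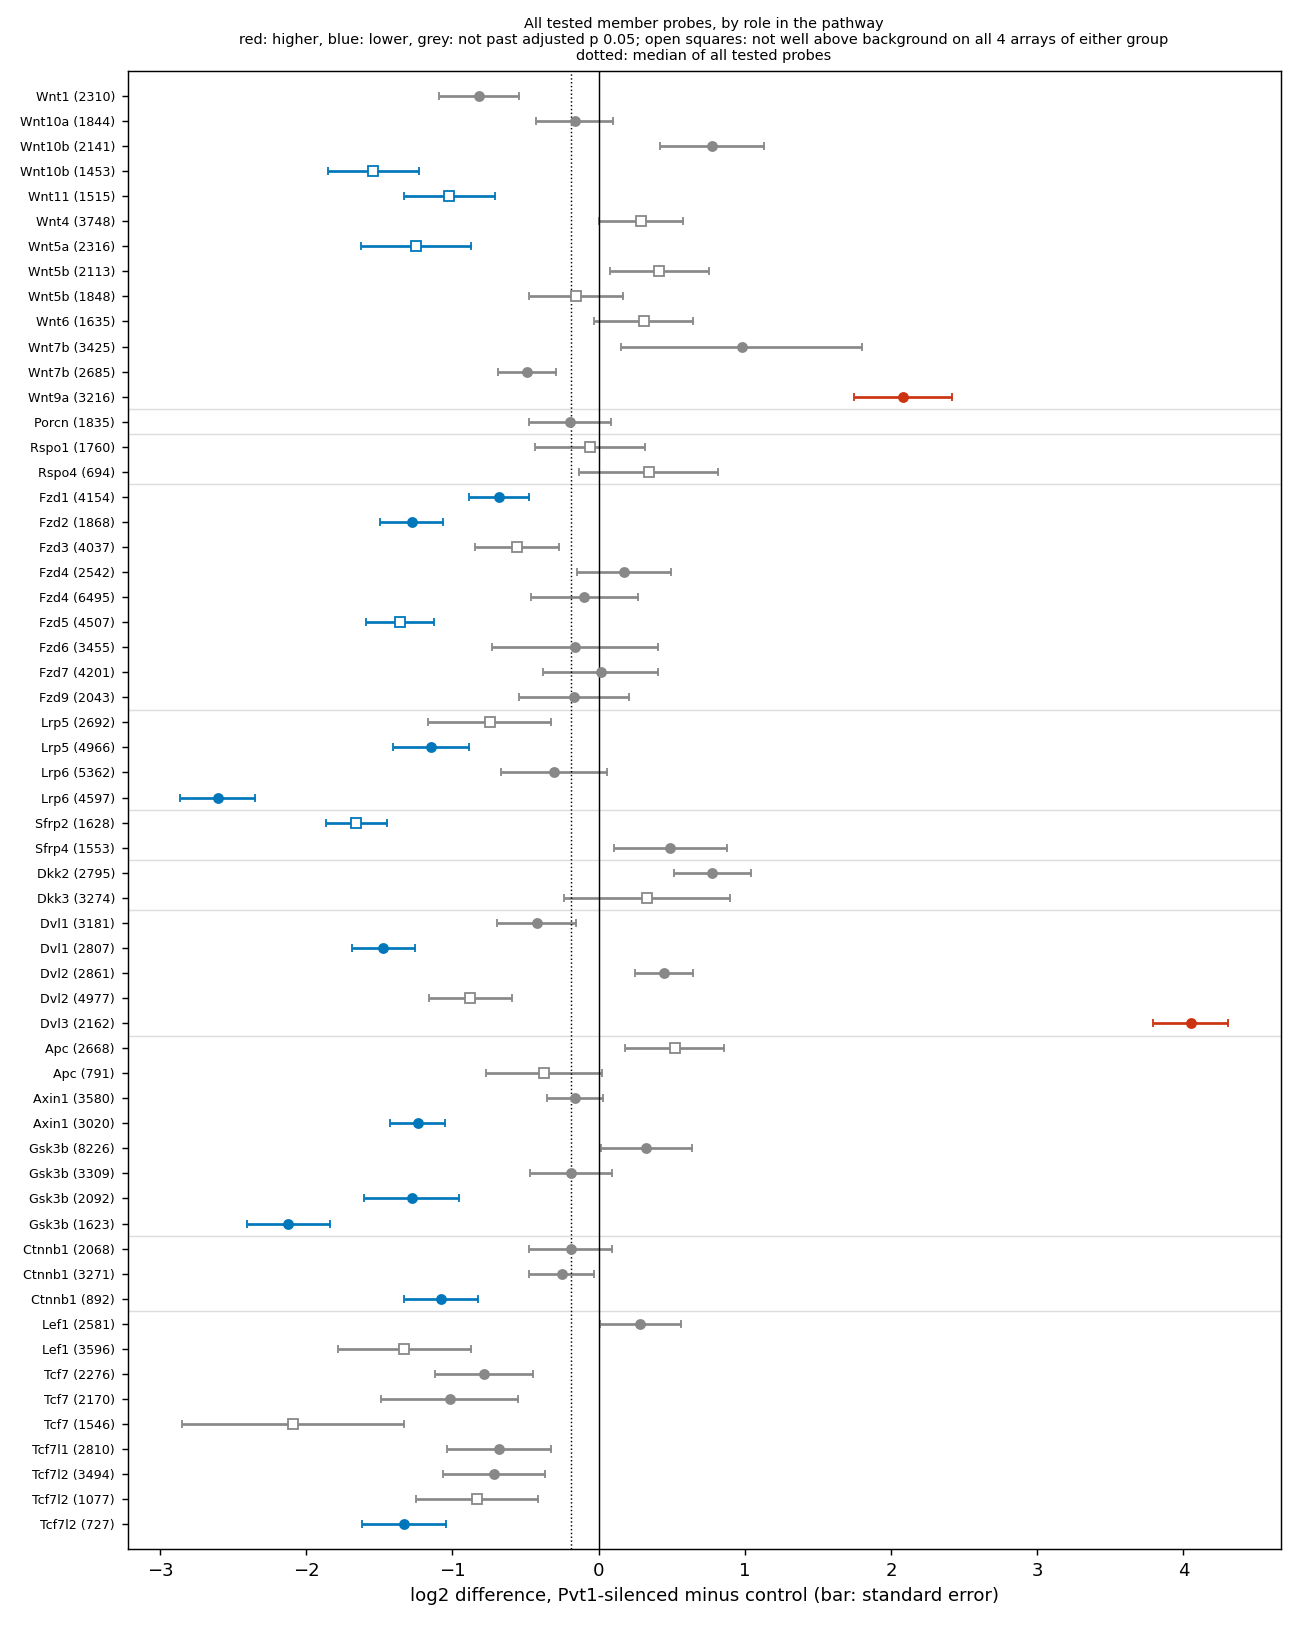
Change of each of the 58 tested member probes, grouped by role, as the log2 difference of silenced minus control with its standard error. Numbers in brackets are the probe's position in its transcript record. The points for Dvl3 (4.05) and Wnt9a (2.08) stand apart on the right, and the computed called falls run from -0.68 for Fzd1 to -2.61 for an Lrp6 probe, where open squares and probes at background after silencing have no exact size.

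Among the ligands, Wnt9a rose. Its probe (base 3216 of NM_139298, chromosome 11, 59146953 to 59147012, plus strand, build mm9) gave 6.89, 7.13, 7.46 and 7.42 on the control arrays and 9.55, 9.21, 10.05 and 8.41 on the silenced arrays. Every silenced value lay above every control value, and silenced replicate 4 was the lowest of its group. The change was 2.08 (SE 0.33, limma adjusted p 0.00285), a 4.23-fold rise, or 2.27 relative to the median of all probes. It was called under all 19 alternatives that gave a value, with changes of 1.57 to 2.46. Wnt9a is a ligand known from joint formation and from chondrocytes.

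The Wnt9a promoter is shown because this is the ligand that rose. Below are the 250 bases before its RefSeq start (GRCm38.p6, chr11:59306680-59306929, plus strand), with an E-box in capitals. The E-box CACGTG is the palindrome that Myc and Max bind, and here it begins at position -228 from the start.
Wnt9a promoter: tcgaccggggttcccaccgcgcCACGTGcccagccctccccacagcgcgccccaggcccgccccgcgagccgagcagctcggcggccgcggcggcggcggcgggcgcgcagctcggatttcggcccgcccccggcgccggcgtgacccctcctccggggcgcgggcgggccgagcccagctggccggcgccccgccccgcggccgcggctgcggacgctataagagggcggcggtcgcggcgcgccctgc
Promoter windows of 250 bases before to 50 after a start were at hand for 37 member genes (46 windows). The E-box was in 10.9% of these and in 7.15% of all 32851 windows, and besides Wnt9a it was found in Dvl2, Fzd9, Lef1 and Rspo4. The core that Lef and Tcf factors bind was searched as CTTTGAA or as CTTTGAT or as CTTTGTA or as CTTTGTT, on both strands. It was in 15.2% of member windows and 16.9% of all windows, in Dkk1, Fzd7, Lef1, Tcf7l2, Wnt3, Wnt5b and Wnt11, and not in that of Wnt9a. These matches are descriptions of letters, and binding was not measured.

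Wnt10b, a ligand that holds back adipocyte formation, gave opposite values on its 2 probes. Its weaker probe, at base 1453 of NM_011718 (chromosome 15, 98602897 to 98602956, minus strand), gave 6.01, 6.24, 6.48 and 6.87 on the control arrays and 4.88, 5.60, 4.72 and 4.24 on the silenced arrays, with no overlap, and was called lower (computed change -1.54, SE 0.31, limma adjusted p 0.00767). It was well above background on 3 control arrays and on no silenced array, which puts the controls at least 1.17-fold higher. The brighter probe at base 2141 gave 7.55, 7.84, 8.45 and 7.82 on the control arrays and 9.00, 8.63, 9.40 and 7.74 on the silenced arrays. Here 3 silenced values exceeded all controls and silenced replicate 4 did not. Its change of 0.78 (SE 0.36, limma adjusted p 0.147) was not called, but it was called higher with cyclic loess (1.14), the 75th percentile (1.06), the authors' table (1.12) and no masking (1.11), and without silenced 4 (1.11).

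Wnt7b also had 2 probes that differed. The probe at base 3425 of NM_001163634 gave 8.52, 9.15, 9.76 and 9.01 on the control arrays and 10.74, 11.20, 11.30 and 7.11 on the silenced arrays. Its first 3 silenced arrays were above all controls and silenced replicate 4 was below them all. Over all arrays the change was 0.98 (SE 0.83, limma adjusted p 0.433), while without silenced replicate 4 it was 2.00 (limma adjusted p 0.00342). The probe at base 2685 of NM_009528 gave 9.71, 9.93, 9.86 and 9.94 on the control arrays and 9.51, 9.64, 9.07 and 9.25 on the silenced arrays, a change of -0.49 (SE 0.20, limma adjusted p 0.105) without overlap between the groups. Wnt7b is a ligand best known from lung, kidney and bone.

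The Wnt1 probe gave 8.21, 8.64, 8.07 and 8.62 on the control arrays and 7.88, 7.97, 7.46 and 6.95 on the silenced arrays. All silenced values were below all controls, yet the change of -0.82 (SE 0.27, limma adjusted p 0.0553) missed the threshold. It was called lower with normexp (-0.62), among probes well above background on at least 4 arrays, and without control 3 (-0.92). Wnt1 is the founding ligand of the family and a canonical one. Wnt10a had a change of -0.16 (SE 0.26) and was not called. Porcn, which every Wnt needs for secretion, had a change of -0.19 (SE 0.28), equal to the median of all probes.

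Dimmer ligands include called falls of Wnt5a and Wnt11, ligands known for signalling that does not use β-catenin. They fall outside the rule for named genes and were named after their values were seen. Wnt5a gave 6.05, 6.34, 6.57 and 6.18 on the control arrays and 4.52, 4.47, 4.88 and 6.25 on the silenced arrays. Silenced replicate 4 lay within the controls and the other 3 below them, and it was called lower (limma adjusted p 0.0391). Wnt11 gave 5.64, 5.29, 6.30 and 5.37 on the control arrays and 4.44, 4.40 and 5.04 on the silenced arrays, where silenced replicate 4 had no value, and was called lower (limma adjusted p 0.044). Wnt5a was called in 4 of 18 alternatives and Wnt11 in 5 of 17. Both were near background: Wnt5a was well above it on 2 control and 1 silenced arrays and Wnt11 on 1 control array alone, so no size is given for either. Wnt4, Wnt5b and Wnt6 were well above background on some arrays only, and none was called. Rspo1 and Rspo4, the tested R-spondins, were well above background on no array and were not called.

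Among the Frizzled receptors, Fzd2 and Fzd1 fell. The Fzd2 probe (base 1868 of NM_020510, chromosome 11, 102467613 to 102467672, plus strand) gave 12.39, 12.36, 12.04 and 12.56 on the control arrays and 11.17, 11.39, 10.74 and 10.94 on the silenced arrays. Every silenced array lay below every control array. The change was -1.28 (SE 0.22, limma adjusted p 0.00359), or -1.09 relative to the median of all probes, and it was called under all 19 alternatives. Fzd2 can pass signals with or without β-catenin.

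The Fzd1 probe (base 4154 of NM_021457, chromosome 5, 4754003 to 4754062, minus strand) gave 10.84, 10.92, 11.33 and 11.10 on the control arrays and 10.50, 10.43, 10.51 and 10.03 on the silenced arrays. No values overlapped, but the fall was small. Its change was -0.68 (SE 0.21, limma adjusted p 0.0403), or -0.49 relative to the median of all probes, and it was called in 9 of 19 alternatives. Cyclic loess kept the call, while the shift to the 75th percentile gave -0.37 and lost it. Blocking on the slide row also lost the call, as did leaving out any 1 array other than silenced 4.

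Fzd5 was called lower (limma adjusted p 0.00479) but was well above background on no array, so no size is given for the difference. A second Fzd5 probe, also well above background on no array, had values on all 4 controls and on no silenced array, and was not tested. Fzd5 was named after its values were seen. Fzd6 and Fzd7 were set by 1 array. Fzd7, a receptor known from satellite cell expansion, gave 9.82, 10.21, 8.31 and 10.02 on the control arrays and 9.72, 9.93, 9.46 and 9.31 on the silenced arrays, and the 1 low control was replicate 3. Its change was 0.01 (SE 0.39) with all arrays and -0.41 without control replicate 3. The Fzd6 probe read 7.29 on the same array against 9.63 to 10.06 on the other controls, and its change was -0.16 (SE 0.57) with it and -0.81 (limma adjusted p 0.0528) without it. Fzd3, Fzd4 and Fzd9 were not called. The Fzd4 probe at base 2542 had a change of 0.17, and it was called higher with the 75th percentile (0.47), cyclic loess (0.52), the authors' table (0.53) and no masking (0.52).

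Of the co-receptors, the brightest Lrp5 probe (base 4966 of NM_008513, chromosome 19, 3584971 to 3585030, minus strand) gave 10.16, 10.51, 10.78 and 10.28 on the control arrays and 9.51, 9.50, 9.49 and 8.65 on the silenced arrays. All silenced values were below all controls and silenced replicate 4 was the lowest. The change was -1.14 (SE 0.26, limma adjusted p 0.0123). It was no longer called by a t-test with unequal variances or with the slide row as a block. Lrp5 is best known for its part in bone mass. A dim second probe, designed on AK081025 and well above background on 1 control array alone, was not called.

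Lrp6, the closest relative of Lrp5, fell on 1 probe and was not called on another. The probe at base 4597 of NM_008514 (chromosome 6, 134404723 to 134404782, minus strand) gave 7.91, 8.52, 7.74 and 8.49 on the control arrays and 5.93, 5.70, 5.33 and 5.29 on the silenced arrays. It was well above background on all controls and on no silenced array, which puts the controls at least 4.00-fold higher. The computed change was -2.61 (SE 0.26, limma adjusted p 0.000475). The brighter probe at base 5362 of the same record (chromosome 6, 134400440 to 134400499, minus strand) gave 8.93, 9.39, 8.85 and 9.44 on the control arrays and 9.01, 8.87, 9.68 and 7.82 on the silenced arrays. These groups overlapped, and the change was -0.31 (SE 0.36, limma adjusted p 0.590).

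**Figure D2:**
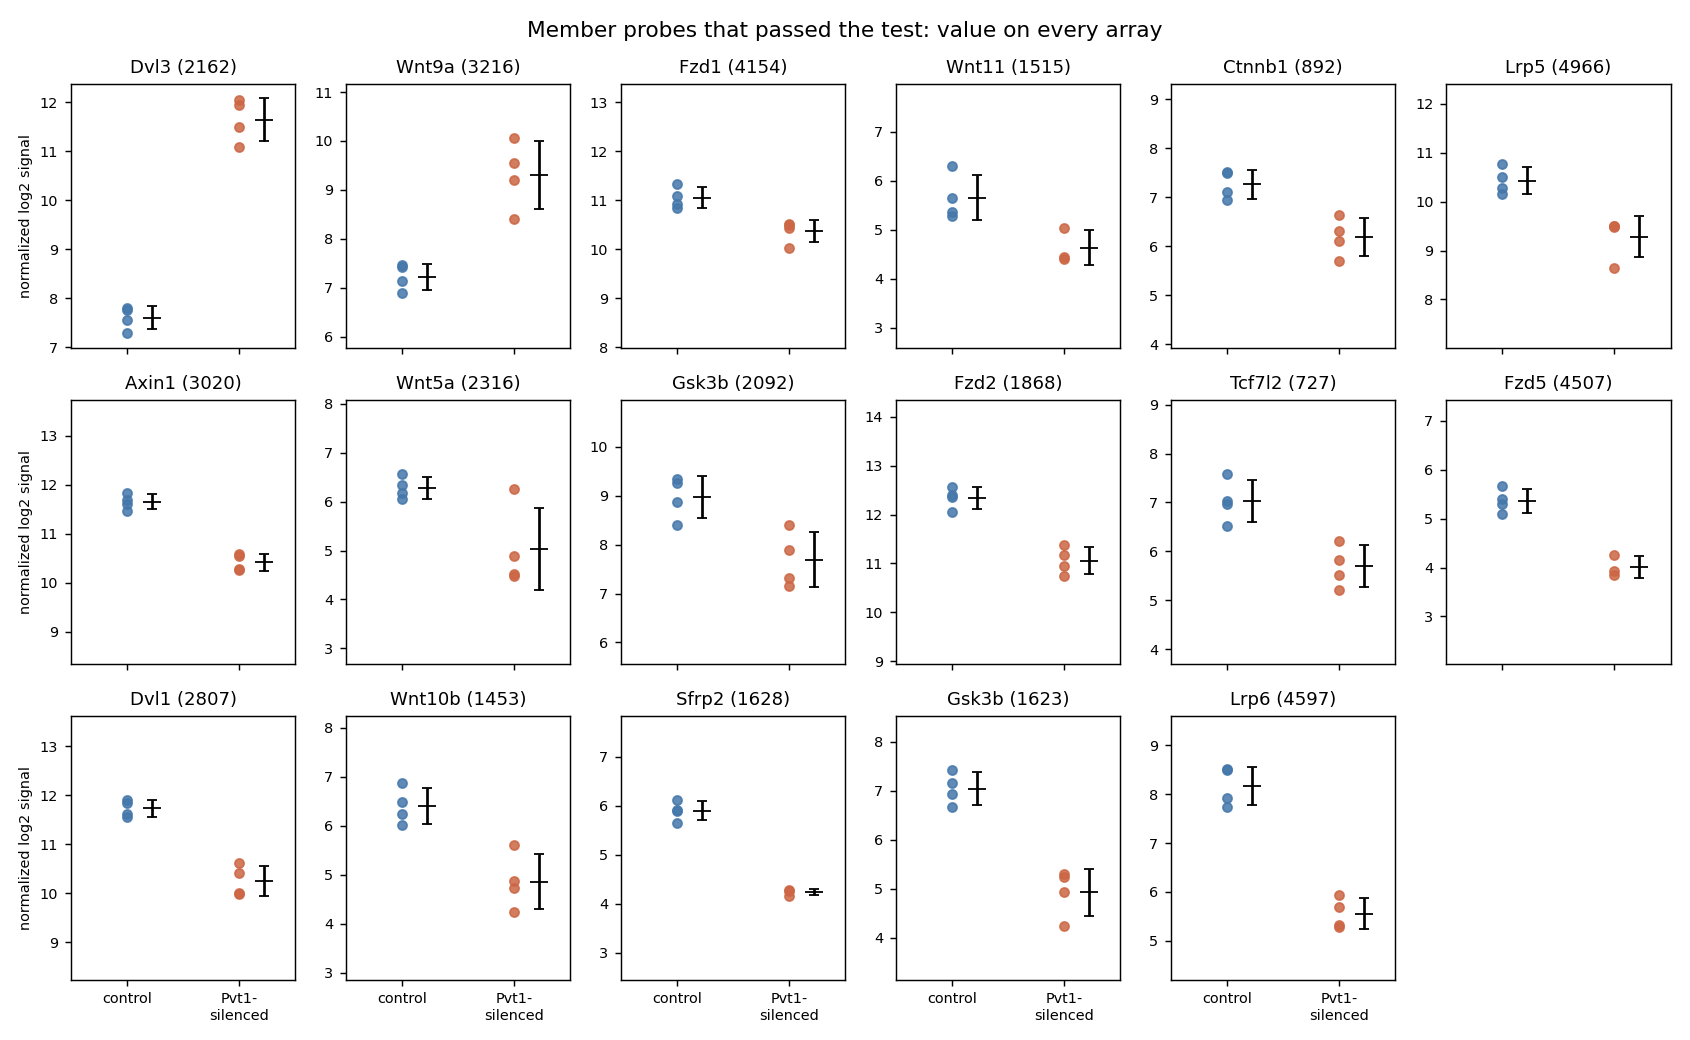
Normalized log2 signal on each array for the 17 member probes that passed the test, with 4 control (blue) and 4 silenced (orange) arrays and the mean with its SD in black. The groups separate fully for all but Wnt5a, and silenced replicate 4 gave no value for Wnt11, Fzd5 and Sfrp2.

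None of the brighter secreted inhibitors passed the test. Dkk2, which binds Lrp5 and Lrp6, gave 9.43, 9.57, 10.27 and 9.58 on the control arrays and 10.69, 10.48, 10.81 and 9.99 on the silenced arrays. The highest control exceeded the lowest silenced array, and the change was 0.78 (SE 0.26, limma adjusted p 0.0594). It was called higher in 9 alternatives, among them cyclic loess (0.97), the 75th percentile (1.06) and no masking (1.03). Sfrp4 had a change of 0.49 (SE 0.39) with 1 low silenced array, replicate 4, and was called higher with cyclic loess (0.84) and the 75th percentile (0.80). Sfrp2, a Wnt antagonist also known as a matrix protein, was called lower (limma adjusted p 0.00141). It gave 5.91, 6.12, 5.90 and 5.65 on the control arrays and 4.28, 4.27 and 4.17 on the silenced arrays, with 1 silenced value missing. As 1 control array alone was well above background, no size is given for the difference, and the gene was named after its values were seen. Dkk3, with 1 array of each group well above background, was not called.

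The Dishevelled genes gave the largest rise. The Dvl3 probe (base 2162 of NM_007889, chromosome 16, 20531470 to 20531529, plus strand) gave 7.56, 7.76, 7.28 and 7.79 on the control arrays and 11.95, 11.50, 12.05 and 11.10 on the silenced arrays. The lowest silenced array exceeded the highest control by a wide margin. The change was 4.05 (SE 0.26, limma adjusted p 6.8e-05), a 16.6-fold rise, with 4.42 within row 1 and 3.75 within row 2 of the slide. It was called under all 19 alternatives, with changes of 3.50 to 4.40. A second Dvl3 probe at base 1307 of the same record was positive on 1 control array (4.30) and 1 silenced array (4.47), was well above background on none and was not tested. The rise of Dvl3 thus rests on 1 probe, on arrays that also gained the hepatocyte signals above, as the rise of Wnt9a does, and the part of those signals in either rise was not tested.

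Dvl1 had 2 bright probes that differed. Its 5′ probe at base 2807 of NM_010091 (chromosome 4, 155232777 to 155232836, plus strand) gave 11.56, 11.91, 11.62 and 11.84 on the control arrays and 10.41, 10.62, 9.99 and 10.01 on the silenced arrays, with no overlap, and fell by 1.47 (SE 0.22, limma adjusted p 0.00193). Its 3′ probe at base 3181 gave 11.94, 12.27, 12.65 and 12.22 on the control arrays and 11.93, 12.21, 12.06 and 11.18 on the silenced arrays. Silenced replicate 4 alone was low there, and the change was -0.42 (SE 0.27, limma adjusted p 0.293). Dvl2 had a change of 0.45 (SE 0.20, limma adjusted p 0.134) on its bright probe, where the highest control and the lowest silenced array both read 11.29, and this was called higher with cyclic loess (0.57), the 75th percentile (0.81), the authors' table (0.62) and no masking (0.63), and without silenced 4 (0.56). Its other tested probe, at base 4977 of ENSMUST00000102575 and well above background on 1 control array alone, went the other way. It gave 5.40, 5.83, 6.41 and 5.56 on the control arrays and 4.78, 5.17 and 4.81 on the silenced arrays, with silenced replicate 4 missing and no overlap, and missed the threshold (limma adjusted p 0.0566). It was called lower with cyclic loess and without silenced 4, and no size is given. The 3 Dishevelled genes act in the same step, and their brightest probes had changes of -0.42, 0.45 and 4.05, of which the last was called.

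The destruction complex showed the same kind of split. Axin1, the scaffold, gave 11.47, 11.84, 11.70 and 11.61 on the control arrays and 10.54, 10.58, 10.27 and 10.27 on the silenced arrays on the probe at base 3020 of NM_001159598 (chromosome 17, 26332106 to 26332165, plus strand). This was a fall by 1.24 (SE 0.19, limma adjusted p 0.00229) without overlap. The brighter probe at base 3580 had a change of -0.16 (SE 0.19, limma adjusted p 0.582). Gsk3b, the kinase that marks β-catenin for degradation, had 4 tested probes. The probe designed on ENSMUST00000132057 (chromosome 16, 38209014 to 38209073, plus strand) gave 6.66, 6.93, 7.44 and 7.17 on the control arrays and 4.93, 5.30, 5.23 and 4.25 on the silenced arrays. It was well above background on all controls and on no silenced array, and the controls were at least 1.84-fold higher (computed change -2.12, SE 0.28, limma adjusted p 0.00128). The probe at base 2092 of NM_019827, which spans a splice junction, changed by -1.28 (SE 0.33, limma adjusted p 0.0203). That call was lost in 7 of 19 alternatives, namely the authors' table, no masking, the slide row as a block, the t-test with unequal variances, and without control 2, control 4 or silenced 3. The probes at bases 3309 and 8226 of that record had changes of -0.19 (SE 0.28) and 0.33 (SE 0.31), neither called. The latter was called higher with the 75th percentile (0.60) and cyclic loess (0.61). Apc was dim, well above background on 1 array of each group on 1 probe and on none on the other, and neither probe was called.

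β-catenin itself was read by 3 probes of Ctnnb1. The brightest, at base 3271 of NM_007614 (chromosome 9, 120869274 to 120869333, plus strand), gave 13.16, 13.48, 12.78 and 13.29 on the control arrays and 13.05, 13.14, 12.87 and 12.65 on the silenced arrays. The groups overlapped and the change was -0.25 (SE 0.22, limma adjusted p 0.446). A second probe had a change of -0.19 (SE 0.28). The dimmest, at base 892, gave 6.94, 7.50, 7.10 and 7.51 on the control arrays and 6.11, 6.30, 6.64 and 5.69 on the silenced arrays, a fall by 1.08 (SE 0.25, limma adjusted p 0.0148) without overlap. That probe was well above background on 2 of 4 silenced arrays, and the call was lost without control 2 or control 4.

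Among the nuclear factors, 1 of 9 tested probes was called, lower, beside 18.4% lower and 4.79% higher of all tested probes. It read Tcf7l2, the factor best known from type 2 diabetes, at base 727 of NM_001142923 (chromosome 19, 55817272 to 55817331, plus strand), and gave 6.53, 6.97, 7.04 and 7.58 on the control arrays and 6.21, 5.83, 5.53 and 5.22 on the silenced arrays. It was well above background on no silenced array, so that controls were at least 1.82-fold higher (computed change -1.33, SE 0.29, limma adjusted p 0.0105). The brightest Tcf7l2 probe had a change of -0.71 (SE 0.35, limma adjusted p 0.17), and one well above background on no array was called lower only without silenced 2. Tcf7l1, mainly a repressor, had a change of -0.68 (SE 0.35), and Lef1 one of 0.29 (SE 0.27) on its brightest probe, which was called higher with cyclic loess (0.58), the 75th percentile (0.56), the authors' table (0.59) and no masking (0.58). The other tested Lef1 probe, at base 3596 of ENSMUST00000132737, was well above background on 1 control array alone, so no size is given. It missed the threshold (limma adjusted p 0.0667) and was called lower with a trended robust prior (limma adjusted p 0.037) and without control 2 (limma adjusted p 0.0192).

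Tcf7 was low on 1 control array. Its probe at base 2170 of NM_009331 gave 10.13, 10.37, 8.09 and 10.18 on the control arrays and 8.78, 9.05, 8.51 and 8.35 on the silenced arrays. Control replicate 3 was below all silenced arrays and the other 3 controls were above them. The same array was lowest on the probes at bases 2276 (8.65) and 1546 (4.89). The probe at base 1546 was well above background on the other 3 controls and on no silenced array, and its control replicate 3 was below every silenced array, so no size is given for it. The changes over all arrays were -1.02 at base 2170 and -0.78 at base 2276, and none of the 3 probes was called. Without control replicate 3 these were -1.53 and -1.12, and all 3 probes were called lower (limma adjusted p 0.0024, 0.00547 and, for base 1546, 0.000605). Tcf7 is a T-cell and stem-cell factor that also acts downstream of Wnt in muscle progenitors.

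Several of these splits share an order along the gene. Of 15 member genes with more than 1 tested probe, the probe nearest the 5′ end had the lower change in 11 when set against the probe nearest the 3′ end. The median computed change was -1.24 over the 5′ probes and -0.25 over the 3′ probes. The 5′ probe alone was called in 7 genes, the 3′ probe alone in 1 (Lrp5), both in none and neither in 7. Over all 6143 genes with several tested probes on 1 strand, the 5′ probe had the lower change in 69.8%, against 73.3% of the members, and the medians were -0.46 and -0.04. The 5′ probe alone was called in 23% of all genes, against 46.7% of the members. The 3′ probe alone was called in 11.8% of all genes, against 6.67%, and both were called in 7.15%, against 0%. On each array the signal of a gene's 3′ probe was subtracted from that of its 5′ probe, which cancels the brightness of a culture. For Axin1 it was -1.08 to -0.52 in controls and -2.02 to -1.75 after silencing, and for Dvl1 -1.04 to -0.35 and -2.07 to -1.17. The difference was also lower after silencing for Lrp6 and Wnt10b, whose 5′ probes were well above background on no silenced array, and for Ctnnb1, whose 5′ probe was so on 2 of 4, and no size is given for these 3. None of the 5 genes overlapped between the groups. Each had an exact two-sided permutation p of 0.0286, the smallest that 4 against 4 arrays allow, or 0.0629 after adjustment over the 11 genes with complete values. As full separation fixes that p and these genes were picked for it, the p restates the choice. Dvl2 did not overlap either but ran the other way, with its 5′ probe higher and a 3′ probe near background. These 6 of 15 genes are 40% of the members, and in either direction the groups did not overlap for 40% of all 6143 genes. A lower change at the 5′ probe was thus about as frequent among the members as over the array. A call on the 5′ probe alone was more frequent among the members. The part of RNA quality in it was not tested.

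**Figure D3:**
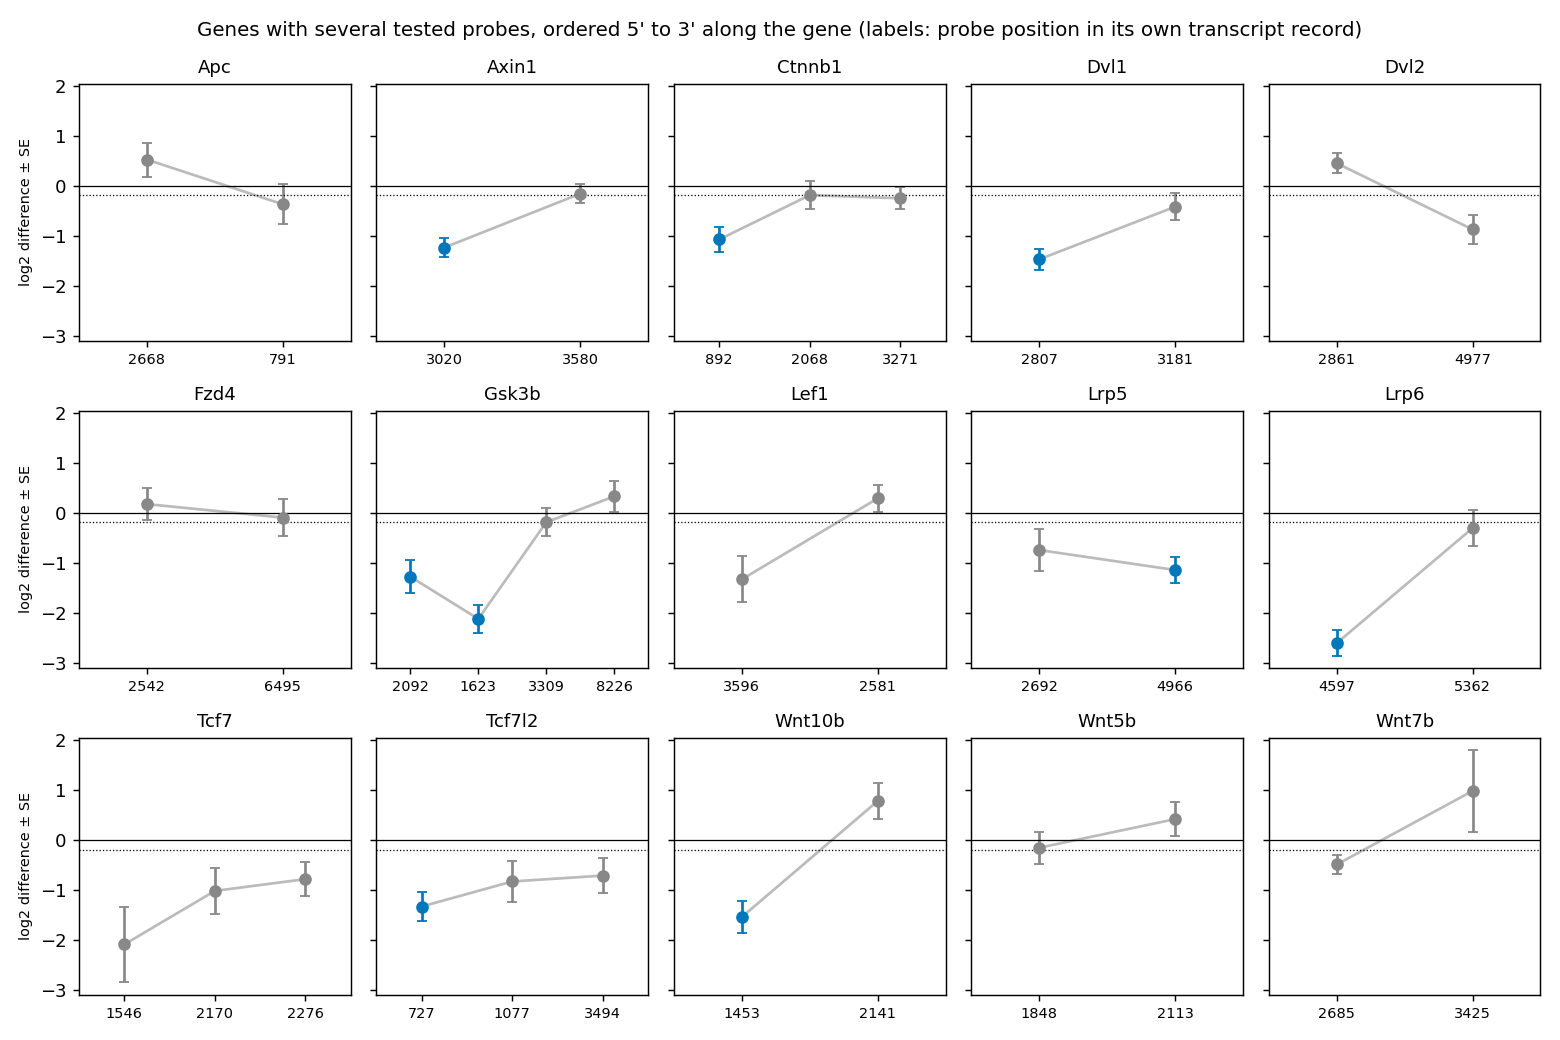
Change with its standard error for each tested probe of the 15 member genes with several probes, ordered from 5′ to 3′ within each gene. Blue marks a called fall, and the dotted line is the median of all tested probes. In 11 genes the leftmost probe lies below the rightmost. The gaps drawn for Wnt10b and Lrp6 have no exact size, as their 5′ probes were well above background on no silenced array.

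The outer 30 bases at the 5′ end of the 60-base probes are printed, so that the parts of each transcript can be told apart, for the 5 genes above whose 5′ probe was lower with no overlap of the difference between groups, chosen after their values were seen, and for the Dvl3 pair. In each pair the probe that passed the test is given first.
Lrp6, base 4597: atcgagcgcacgtcacgggagcctcctcaa
Lrp6, base 5362: caaaggaaacaggaaaagaaaggcatcact
Dvl1, base 2807: ttcccttctttggaagtgacctccatttag
Dvl1, base 3181: cacctagccactgtctcagtctcagtggtg
Axin1, base 3020: aagattgtgtcatgagctcttctatcgggg
Axin1, base 3580: ccctgagcccatttttcatgcaatgacttt
Wnt10b, base 1453: tgctgtgtgatgagtgtaaagtcacagagt
Wnt10b, base 2141: gggtgggaatggataatttattttactgag
Ctnnb1, base 892: gcagaatacaaatgatgtagagacagctcg
Ctnnb1, base 3271: ttctaagaaccgagtaatggtgtagaacac
Dvl3, base 2162: cccccaggagcccctccagggcgtgacctg
Dvl3, base 1307: agctccatccctgatacagagcgcctagat
Over all 60 bases the Dvl3 probe that rose had a GC content of 76.7%, against 51.7% for the other Dvl3 probe and 35.0% to 55.0% for the other 10. The part of base composition in its signal was not tested.

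Genes around the core were taken from 7 lists of 103 symbols, of which 88 were tested by their brightest probe. Of these 15 were lower (17%) and 5 higher (5.68%), beside 13.2% and 6.59% of all genes, with a median change of -0.14 against -0.05. The balance turned with the scaling, to 8 lower and 26 higher after the shift to the 75th percentile, 14 and 16 with cyclic loess, 13 and 15 in the authors' table and 13 and 14 without masking. All tested probes turned too, with 4365 lower and 7075 higher, 5258 and 5416, 4461 and 4509, and 4787 and 4990, in that order. The last 2 settings tested 45741 and 56600 probes in place of 28649. Without control 2 or 4, or with the slide row as a block, 7 were lower (3077, 2995 and 2572 of all probes). Without silenced 4 there were 8 higher (3572 of all probes). Of 22 tested target genes, from the longest list with 27 symbols, 7 were lower (31.8%, beside 13.2% of all genes) and 2 higher (9.09%, beside 6.59%), with a median change of -0.25. Counts for this list alone were not made under the other scalings, nor were those of the lists that follow. Bmp4, a growth factor, changed by -1.78 (SE 0.29), Fosl1, an AP-1 subunit, by -1.73 (SE 0.21) and Plaur, the urokinase receptor, by -0.98 (SE 0.19). Sox9, a cartilage factor, rose by 1.54 (SE 0.29) and Apcdd1, a Wnt inhibitor that is also a target, by 1.06 (SE 0.24), while a second Sox9 probe had a change of -1.25 and was not called. The members of this list thus moved both ways.

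The receptors Lgr6, which binds R-spondins, and Kremen1, which binds Dkk proteins, fell by 1.94 (SE 0.23) and 1.19 (SE 0.22) among 7 tested receptors. Of these 28.6% were lower and 0% higher, beside 13.2% and 6.59% of all genes. Notum, which strips the lipid from Wnts, changed by -1.06 (SE 0.26) on its brightest probe. Another Notum probe, nearer the start of its record at base 651, was called higher. It was well above background on all silenced arrays and on no control, which puts the silenced cells at least 1.74-fold higher. Cthrc1 fell by 1.13 (SE 0.35). By brightest probe Notum and Cthrc1 were the calls among 4 tested secretion and modulator genes (50% lower, beside 13.2% of all genes). In the kinase and turnover list, 2 phosphatase subunits fell, Ppp2r1a by 1.04 (SE 0.21) and Ppp2ca by 0.71 (SE 0.18), and Dact2, a Dishevelled-binding protein, rose by 2.73 (SE 0.28), among 18 tested. That is 11.1% lower and 5.56% higher, near the 13.2% and 6.59% of all genes. Crebbp, a coactivator, fell by 1.31 (SE 0.22) among 14 nuclear cofactors (7.14% lower, beside 13.2% of all genes). In the planar polarity and calcium list 2 of 17 were higher (11.8%, beside 6.59% of all genes) and 0% lower. The 2 that rose were the cadherin Celsr1 (1.96, SE 0.31) and Prickle3. The latter was well above background on 3 silenced arrays and no control, which puts the silenced cells at least 1.60-fold higher. Prickle3 was named after its values were seen. Of 6 junction genes Cdh15, a muscle cadherin, fell by 0.86 (SE 0.20), that is 16.7% lower, beside 13.2% of all genes. Each named call had a limma adjusted p under 0.05, between 0.000532 for Dact2 and 0.0423 for Cthrc1.

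**Figure D4:**
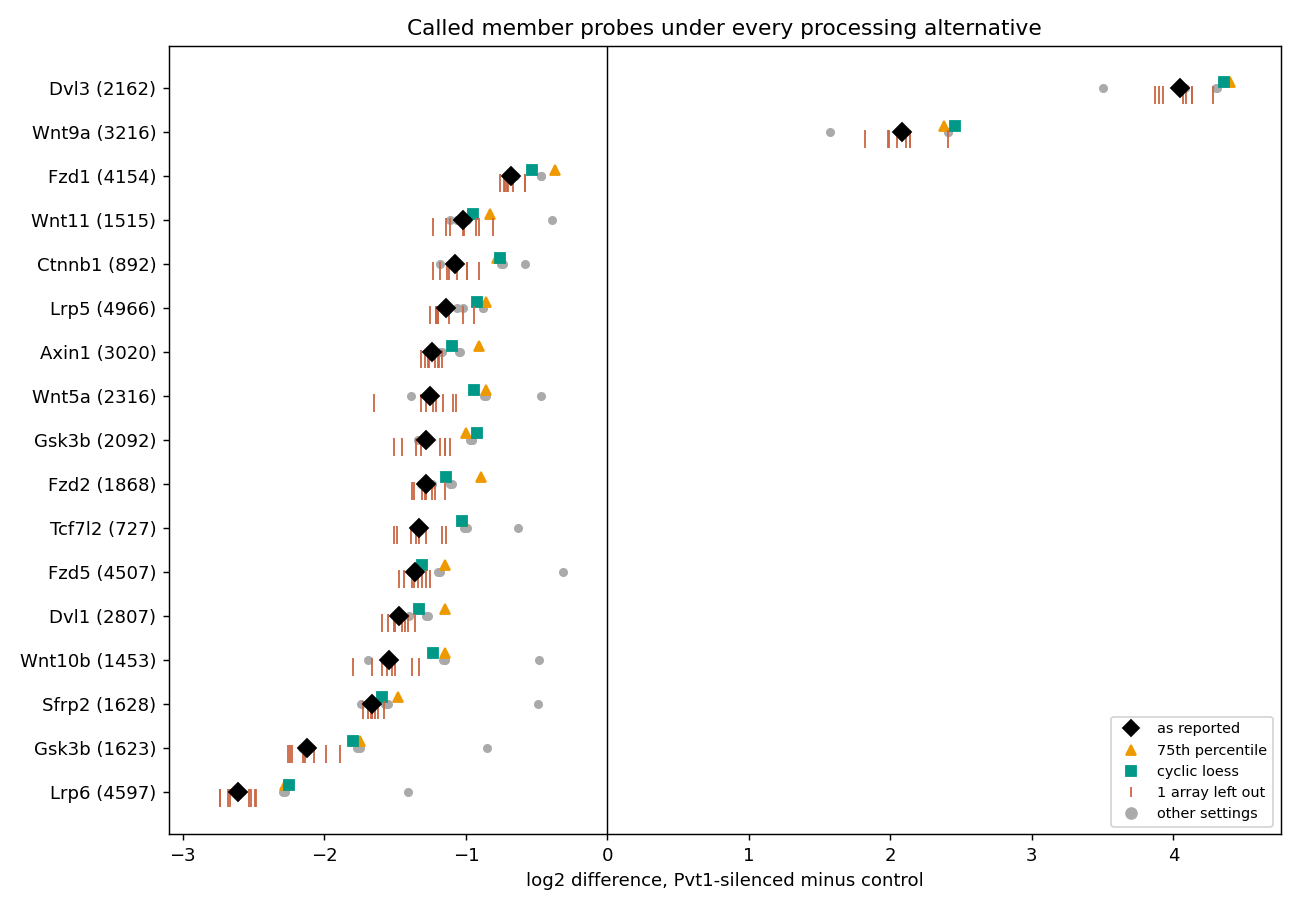
Change of each of the 17 called member probes under every processing alternative, with the reported value as a diamond. No point crosses 0, and the points for Dvl3 (3.50 to 4.40) and Wnt9a (1.57 to 2.46) stay apart from the falls.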

How the data were processed

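Gene expression was measured in C2C12 cells on 8 one-colour Agilent arrays. The authors deposited the scanner output of each array, with spot intensity already background-subtracted and detrended within the array, and flags of 0 or 1 (other values) for spot quality. The labels name Agilent Feature Extraction 10.7.3.1 and the deposited file headers name 12.0.0.7. A deposited table of intensity values made equal in quantiles between arrays was used as an alternative. It had no unmapped columns.

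Processed signals were converted to log2, after which spots not positive and significant, control spots and outlier spots were left out. Values were quantile-normalized and averaged by probe, and tested with limma 3.58.1 in R 4.3.3 on probes with at least 3 values in each group. The script was tested on simulated data. A gene was read by its brightest tested probe. A probe is well above background on an array where all its spots carry that flag. Where it was so on no array of a group, a bound ("at least N-fold") was set against the higher of its own value and the lowest signal well above background on each array.

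The members and lists were chosen with earlier results of these data known. Named genes are members that had a probe well above background throughout at least 1 group of 4 arrays, and the called pathway genes with the largest changes, up to 3 per list and direction. Probes of a gene were ordered along it by coordinates and strand, for the members and for all genes. Coordinates are on mm9, from the files. Promoters are RefSeq's (GRCm38.p6). The number of arrays limits the precision, and p-values measure the spread between these samples. The labels do not say whether equal replicate numbers pair the samples, and the main test did not pair them. The alternatives covered normalization, background correction, filters, slide row, replicate block, the prior of the variance, a t-test with unequal variances, the probe of a gene and leaving out each array. That t-test took its p from the t distribution, adjusted by the Benjamini-Hochberg method unless Bonferroni is named.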

Additional observations from a re-analysis of the deposited data

Results flagged for a closer look

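In 10 of 92 groups of 4 arrays, 1 array stood far from the other 3 for a member probe, where chance gives about 1 in 20. Silenced replicate 4 was the array in 4 of these and control replicate 3 in 3. On silenced replicate 4 the Wnt7b probe at base 3425 read 7.11, Fzd1 read 10.03, Lrp5 at base 4966 read 8.65 and Sfrp4 read 6.23, each below the other silenced arrays. On control replicate 3 Fzd6 read 7.29, and Tcf7 read 8.09 at base 2170 and 4.89 at base 1546, each below the other controls. Control replicate 1 read 6.62 for Fzd4 at base 2542, below the others. Silenced replicate 3 read 5.00 for Lef1 at base 3596 and silenced replicate 2 read 9.22 for Tcf7 at base 2276, each above the other silenced arrays.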

How the results depend on the processing

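Over 48 named probes, 756 values under the alternatives kept direction and call, 48 lost the call, 44 gained it and 48 changed sign. No called probe changed sign, and the cause of each change was not tested. Members called higher went from 2 probes and 2 genes to 12 and 10 with the 75th percentile and with cyclic loess, and to 8 and 7 with the authors' table and with no masking of dim spots. Other pathway genes called higher went from 5 to 26, 16, 15 and 14, and all probes from 1373 to 7075, 5416, 4509 and 4990, in that order. The authors' table tested 45741 probes and no masking 56600, in place of 28649. Each of these 2 settings tested 92 member probes in place of 58. The 75th percentile gave 8 lower other pathway genes in place of 15. Member genes called lower went from 7 to 4 for probes well above background on at least 4 arrays, for values on all 8 arrays and for the t-test with unequal variances. They went to 3 with the slide row and to 11 with the mean of a gene's probes. The slide row gave 7 lower other pathway genes, and 2572 lower and 534 higher of all probes. The t-test gave 3 higher other pathway genes, and 2854 lower and 566 higher of all probes, and after Bonferroni no member, where 15 and 2 had been called by limma. A trended robust prior gave 9 higher other pathway genes and the mean of probes 2. With the replicate block, other pathway genes called lower fell to 9, while 15 lower and 2 higher member probes were called. Under that block Fzd1 was no longer called (limma adjusted p 0.102) and Tcf7 at base 1546 was called lower (limma adjusted p 0.0251). The deviations of same-numbered samples from their group means correlated at -0.02, 0.15, 0.20 and 0.06 for numbers 1 to 4, and samples 2 and 3 correlated best with their own number while 1 and 4 did not.

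Leaving out 1 array gave 10 to 16 lower and 2 to 7 higher member probes, 4 to 7 lower and 2 to 5 higher member genes, 7 to 19 lower and 4 to 8 higher other pathway genes, 2995 to 5737 lower and 684 to 3572 higher of all probes, and a Pvt1 change of -3.12 to -2.69. Member genes called lower were 4 without control 1, 2 or 4 or silenced 1 or 2. Without silenced 4, higher calls were at their most for each count.

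Signs turned only for changes that were not called. The 75th percentile gave Wnt10a 0.10, Porcn 0.055, Fzd4 at base 6495 0.21, Fzd6 0.14, Fzd9 0.14, Dvl1 at 3181 0.01, Axin1 at 3580 0.30, Gsk3b at 3309 0.22, and Ctnnb1 0.26 at 3271 and 0.074 at 2068. Cyclic loess gave Wnt10a 0.086, Porcn 0.039, Fzd4 0.25, Fzd6 0.16, Fzd9 0.18, Lrp6 at 5362 0.018, Axin1 0.009 and Ctnnb1 at 2068 0.0056. The authors' table gave Wnt10a 0.13, Porcn 0.086, Fzd4 0.26, Fzd6 0.11, Fzd9 0.19, Lrp6 0.0081 and Ctnnb1 0.06. No masking gave Wnt10a 0.12, Porcn 0.081, Fzd4 0.25, Fzd6 0.11, Fzd9 0.17, Lrp6 0.0018, Axin1 0.0037 and Ctnnb1 0.06. Fzd7 was -0.0074 with normexp, -0.091 with the slide row, -0.41 without control 3, -0.025 without silenced 1 and -0.095 without silenced 2. Fzd6 was 0.10 without control 2 and 0.099 without control 4. Fzd4 was 0.05 with the slide row. Without control 3 Porcn was 0.017, Fzd4 0.19 and Fzd9 0.084. Over all left-out arrays the changes were -0.29 to 0.047 for Wnt10a, -0.35 to 0.017 for Porcn, -0.27 to 0.19 for Fzd4, -0.81 to 0.10 for Fzd6 and -0.58 to 0.035 for Lrp6. Without silenced 4 Wnt10a was 0.047, Fzd4 0.17, Fzd9 0.13 and Lrp6 0.035. Signal near background left 10 of 19 ligands with a tested probe. The authors' table gave no value for the Pvt1 probe.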
